A study of Mus musculus with 24 samples.

Results

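The genes described here belong to the major histocompatibility complex (MHC) and to the machinery that loads its molecules, measured in microvessels isolated from mouse brain. They were taken by symbol alone: every gene whose symbol begins with H2-, and B2m, Tap1, Tap2, Tapbp, Tapbpl, Nlrc5, Ciita, Cd74, Erap1, Ctss, Cd80, Cd86 and Cd1d1. This gave 35 of the 17270 genes in the table, 22 with an H2- symbol and 13 others, and 25 of the 35 lie on chromosome 17. The family was chosen by its measured normalized counts in these same libraries, which were known when the symbols were listed, so the counts of genes below are a description and no independent support for any direction. All 35 had a mean above 5 normalized counts and entered the test with 15982 genes, the lowest being H2-Q1 with a mean of 5.21 and H2-Oa with 5.42.

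The study followed the neurovascular unit, the endothelium with its surrounding cells, after stroke. Male C57BL/6J mice of 10 to 12 weeks had the right middle cerebral artery closed by a filament for 60 min and then reopened (transient middle cerebral artery occlusion, tMCAO), or a sham operation in which the filament was withdrawn at once. Microvessels were isolated from the ipsilateral and the contralateral hemisphere 24 h or 7 days later, which gives 8 groups of 3 libraries, 24 in all, each library pooled from the hemispheres of 3 mice. The mice of all groups were perfused, those with stroke received supportive feeding, and an ipsilateral sample holds infarcted and intact tissue together because the whole hemisphere without meninges was used.

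MHC class I molecules stand on nearly every nucleated cell and show peptides from inside the cell to CD8 T cells and natural killer cells. A heavy chain pairs with the light chain B2m, and peptides enter through the Tap1 and Tap2 transporter. Class II molecules are made mainly by professional antigen-presenting cells and show engulfed peptides to CD4 T cells. Their chains assemble with Cd74, the invariant chain, which Ctss (cathepsin S) trims, and H2-DM then exchanges the peptide. Nlrc5 switches on class I genes and Ciita class II genes.

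The libraries held 15924780 to 18787932 normalized counts, and 13692148 to 20033304 reads as estimated from the spacing of the low values. Endothelial markers were present in every library, with a sum over 10 genes of 318202 to 501176 normalized counts, against 363 to 11113 for 6 neuronal markers. Neuronal markers were lowest in the tMCAO ipsilateral group at 7 days (363 to 666). Nothing in the sources used here says that a pool number marks shared mice, and p-values measure the spread between these pools.

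The start regions of the class I heavy chain genes are shown first, because they let the near copies within this family be compared letter by letter. RefSeq promoters on GRCm38.p6, from 250 bases before to 50 bases after each start, were found for 22 of the 35 genes. In each of the 9 class I heavy chain genes among them, the 30 bases that end just after the interferon-type letters TTTCNNTT are given 5′ to 3′. Capitals mark those letters, their longer form TTTCNNTTT where it is met, the kappa B type letters GGGNNTTCC and the Y box CCAAT on either strand.
H2-K1, chr17:34000429-34000458, minus strand: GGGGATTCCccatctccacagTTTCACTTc
H2-D1, chr17:35262923-35262952, plus strand: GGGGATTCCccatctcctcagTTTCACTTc
H2-Q6, chr17:35424677-35424706, plus strand: GGGGATTCCccatctccccagTTTCACTTc
H2-Q7, chr17:35439021-35439050, plus strand: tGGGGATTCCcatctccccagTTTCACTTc
H2-Q4, chr17:35379443-35379472, plus strand: gGGGATTTCCcatctccccagTTTCACTTc
H2-Q10, chr17:35469913-35469942, plus strand: gaggactccccatctccccagTTTCACTTc
H2-M3, chr17:37270112-37270141, plus strand: attcccccatttcctctgaggTTTCACTTc
H2-T22, chr17:36042925-36042954, minus strand: gagagtccctaATTGGcttagTTTCACTTT
H2-T23, chr17:36032817-36032846, minus strand: catgaaaagggatcctactgcTTTCTCTTT

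H2-K1, H2-D1, H2-Q4, H2-Q6 and H2-Q7 carried the kappa B type letters just before the interferon-type letters, while H2-Q10, H2-M3, H2-T22 and H2-T23 did not. The windows of H2-D1 and H2-T23 lie inside a first exon of the GENCODE annotation, whose transcripts start farther upstream, and the other 7 overlap no annotated exon on their strand. The interferon-type letters were found on either strand in 16 of 22 genes of the family (72.7%) and in 26.7% of 27025 genes with a promoter. The longer form TTTCNNTTT, which always contains the shorter, was found in 8 of 22 (36.4%) against 12.1%. The kappa B type letters were found in 7 of 22 (31.8%) against 6.58%. The Y box was found in 18 of 22 (81.8%) against 41.1%, and the X box part CCNNGNAAC in 7 of 22 (31.8%) against 17%. These are matches of letters, with no test.

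For comparison with the heavy chains, stretches before the start of H2-K1, of the light chain B2m and of the class II chains H2-Aa and H2-Eb1 are given with the same letters in capitals. None of the 4 overlaps an annotated exon on its strand.
H2-K1, chr17:34000349-34000468, minus strand: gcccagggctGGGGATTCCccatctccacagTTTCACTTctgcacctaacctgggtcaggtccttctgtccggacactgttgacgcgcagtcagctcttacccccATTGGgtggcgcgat
B2m, chr2:122147539-122147648, plus strand: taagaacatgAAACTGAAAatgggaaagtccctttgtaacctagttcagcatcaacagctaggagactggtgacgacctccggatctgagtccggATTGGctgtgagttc
H2-Aa, chr17:34287857-34287964, minus strand: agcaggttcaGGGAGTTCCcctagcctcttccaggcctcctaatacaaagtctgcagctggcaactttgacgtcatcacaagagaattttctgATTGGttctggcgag
H2-Eb1, chr17:34305798-34305846, plus strand: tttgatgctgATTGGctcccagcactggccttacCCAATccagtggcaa

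The family is also alike in its transcripts, which bears on how well each gene can be counted. Of the stretches of 75 bases in the annotated transcripts of a gene, 21.2% stand also in a transcript of another gene for H2-Q5, 18.5% for H2-T22, 17.9% for H2-Q6 and 17% for H2-Q7. Outside the Q and T genes it was 16.1% for H2-DMb2, 15.8% for H2-DMb1 and 14.2% for Cd1d1. The share was 12.5% for H2-Q10, 5.91% for H2-T23, 5.40% for H2-D1 and 3.10% for H2-K1. It was 0 for B2m, Tap1, Nlrc5, Ciita, Cd74, Ctss, H2-Aa, H2-Ab1 and H2-Eb1. The authors left out reads that matched several genes. The values of the Q and T genes, H2-DMb1, H2-DMb2 and Cd1d1 therefore rest on their distinct parts. They are uncertain where alleles or copies resemble each other.

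Levels per length ran from the class I light chain B2m down to a few counts, and the classical class I chains stood above the class II chains. Per kilobase of exon, B2m had a mean of 22700 normalized counts over the 24 libraries, H2-D1 7120 and H2-K1 4327. Tapbp (tapasin, which holds the empty heavy chain) had 1267 per kilobase, H2-T23 957 and H2-Q4 955. On the same scale Ctss had 647, Cd74 523, H2-Eb1 184, H2-Ab1 147 and H2-Aa 122. The regulators were low, with 20.7 per kilobase for Nlrc5 and 1.70 for Ciita. In C57BL/6 mice the class II pair H2-Aa and H2-Ab1 makes the I-A molecule, while I-E is not formed.

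Ipsilateral tMCAO libraries at 24 h were compared with ipsilateral sham libraries to ask what stroke changed early. A gene was called when the limma test across all genes gave an adjusted p below 0.05 (Benjamini-Hochberg) and the change exceeded 1.5-fold in either direction (the fold limit). Of the 35 genes 7 were higher and 0 lower: Ctss, Tap1, H2-K1, H2-Q6, H2-Q7, H2-Q10 and H2-DMa. Among all genes tested 10.0% were called higher and 8.23% lower. The median log2 fold change of the 35 was 0.33, against -0.02 over all genes, and 15 of the 35 (42.9%) had groups that did not overlap, against 49.0% of all genes. With each library centred on its median log2 value, 1330 genes were higher and 1707 lower in place of 1603 and 1316, and 4 of the family were called.

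Ctss, the protease that trims the invariant chain, read 596, 873 and 910 normalized counts in the sham libraries 1, 2 and 3, and 1502, 1612 and 1636 in the tMCAO libraries. The tMCAO values lay close together and far above every sham value, and the log2 fold change was 1.02 ± 0.16 (SE, adjusted p = 0.00015 by limma).

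Tap1, a subunit of the peptide transporter, read 658, 699 and 654 in sham and 1053, 1422 and 901 in tMCAO, without overlap. Its log2 fold change was 0.72 ± 0.13 (adjusted p = 0.00047 by limma). Tap2, the other subunit, rose from a mean of 2127 to 2759, a log2 fold change of 0.37 ± 0.11 (adjusted p = 0.015 by limma) that stayed under the fold limit.

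The classical heavy chain H2-K1 read 7954, 8033 and 9244 in sham and 11187, 17907 and 10708 in tMCAO. All tMCAO values lay above all sham values, and library 2 stood far above the other two. The log2 fold change was 0.62 ± 0.17 (adjusted p = 0.012 by limma). H2-D1, the other classical chain, read 12697, 12473 and 14988 in sham and 17221, 24798 and 15806 in tMCAO, and its log2 fold change of 0.50 ± 0.16 (adjusted p = 0.025 by limma) was below the fold limit. B2m read 13196, 13573 and 15719 in sham and 15340, 25337 and 16169 in tMCAO, so the groups overlapped and B2m was not called (log2 0.39 ± 0.20, adjusted p = 0.14 by limma). In each of these 3 genes library 2 carried the high value.

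Of the non-classical chains, H2-Q7 (of the Qa-2 family) read 131, 141 and 139 in sham and 215, 492 and 201 in tMCAO, a log2 fold change of 1.01 ± 0.28 (adjusted p = 0.011 by limma). H2-Q6, of the same family, read 269, 227 and 267 in sham and 327, 717 and 338 in tMCAO (log2 0.76 ± 0.28, adjusted p = 0.046 by limma). Here too library 2 was the highest, and the groups did not overlap. H2-Q10, a secreted class I molecule known mainly from liver, read 3, 9 and 6 in sham and 65, 35 and 32 in tMCAO. Its log2 fold change of 2.71 ± 0.70 (adjusted p = 0.0070 by limma) was the largest of the family at the lowest level of the called genes.

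H2-T23 encodes Qa-1, which shows leader peptides of other class I chains to natural killer cells, and it was not called. It read 2171, 2217 and 2381 in sham and 1730, 2352 and 2017 in tMCAO (log2 -0.16 ± 0.12, adjusted p = 0.33 by limma). Nlrc5 read 133, 133 and 128 in sham and 81, 200 and 136 in tMCAO, so that its tMCAO libraries enclosed the sham values.

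Class II chains were not called at 24 h. Cd74 read 591, 701 and 1377 in sham and 1250, 1390 and 1486 in tMCAO (log2 0.73 ± 0.33, adjusted p = 0.10 by limma). H2-Aa read 365, 442 and 780 against 581, 685 and 771, H2-Ab1 294, 334 and 634 against 476, 574 and 548, and H2-Eb1 280, 334 and 647 against 402, 556 and 499. In each of the 4 genes sham library 3 was the highest sham value and lay among or above the tMCAO values. H2-DMa, a subunit of the peptide exchanger, read 57, 68 and 87 against 103, 108 and 107 and was called (log2 0.60 ± 0.22, adjusted p = 0.042 by limma). Ciita read 14, 16 and 21 against 39, 32 and 33 without overlap, but was not called (log2 1.0 ± 0.52, adjusted p = 0.15 by limma).

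The 24 h count depended on single libraries. Without tMCAO ipsilateral library 2, Ctss and H2-Q10 were higher and H2-T24 lower, and H2-K1 (log2 0.38, adjusted p = 0.091 by limma), Tap1 (0.54, below the fold limit), H2-Q6 (0.39) and H2-Q7 (0.60) were no longer called. H2-DMa was not called either, although its log2 fold change stayed at 0.59 (adjusted p = 0.10 by limma). Without sham ipsilateral library 1, 4 genes were higher, and without library 2 there were 5. Without library 3 there were 9, Cd74, H2-D1 and H2-DMb1 among them. Cell type markers moved with the same comparison. The sum of 7 leukocyte and myeloid markers was 3429 to 5642 in sham and 5244 to 7340 in tMCAO, with 5 of 7 called higher. The sum of 6 neutrophil markers was 215 to 1111 against 2491 to 5675, with 5 of the 5 tested higher. Of other lists, 4 of 5 monocyte, 4 of 6 dendritic cell and 2 of 5 B cell markers were higher. So were 1 of the 4 T and NK cell markers tested and 2 of 6 perivascular macrophage markers. Of 6 microglial markers 0 were higher and 2 lower. Of 6 neuronal markers 4 were lower, of 5 astrocyte markers 3 and of 6 pericyte markers 2, with 0 higher in each list. Of 5 choroid plexus markers 0 were called. Their sum was 5095 to 74083 in sham and 7855 to 20597 in tMCAO. The sum of 10 endothelial markers was 378501 to 464325 against 318202 to 350611, with 3 of 10 lower. The part of these in the result was not tested, and in bulk samples fewer cells of a type and less RNA per cell cannot be told apart.

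**Figure D1:**
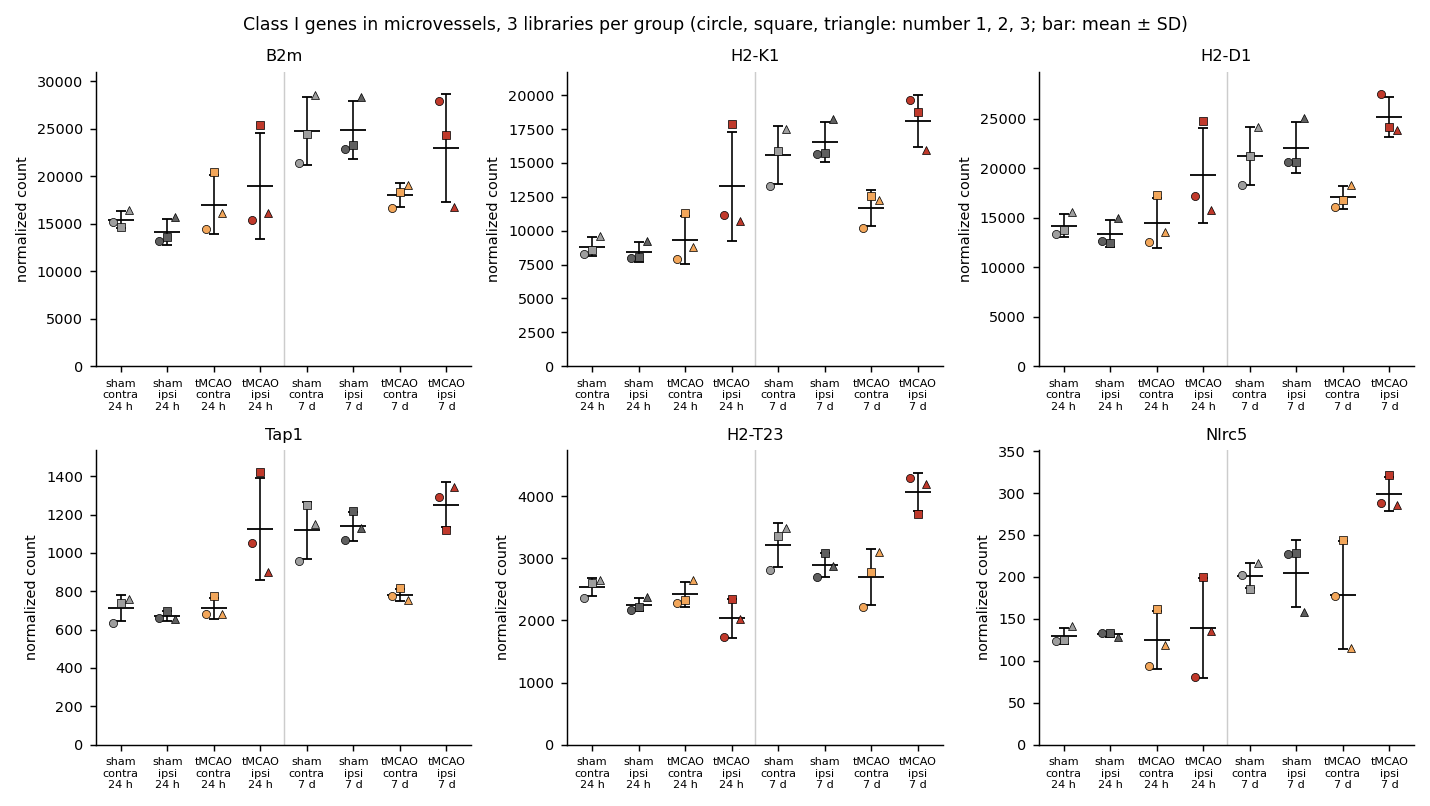
Normalized counts of 6 class I genes in each of the 24 libraries, by group on the horizontal axis (contra, contralateral; ipsi, ipsilateral; d, days). Points are the 3 libraries, marked by number, and bars give mean and SD; in H2-K1, H2-D1 and B2m library 2 is the highest of tMCAO ipsilateral at 24 h, and in sham ipsilateral the 7 day points lie above the 24 h points (called for H2-K1 and H2-D1, not for B2m).

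At 7 days the same comparison called 2 of the 35 genes higher and 0 lower, where 3.27% of all genes were higher and 9.95% lower. The median log2 fold change of the family was 0.11 against 0.02 over all genes. Ctss read 826, 502 and 700 in sham and 1588, 1458 and 1525 in tMCAO, and its log2 fold change was 1.20 ± 0.16 (adjusted p = 4.2e-05 by limma). Its tMCAO values were nearly those of 24 h. Cd1d1, which shows lipids to natural killer T cells, read 5, 8 and 4 in sham and 14, 19 and 15 in tMCAO (log2 1.38 ± 0.42, adjusted p = 0.027 by limma). These are a few reads per library, and the call was lost in 5 of the 6 settings that left out a library, whereas Ctss remained called in all 6.

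Neither H2-K1 nor Tap1 was called at 7 days. H2-K1 read 15684, 15707 and 18232 in sham and 19652, 18755 and 15933 in tMCAO, and Tap1 read 1069, 1217 and 1128 against 1292, 1118 and 1342. The tMCAO level of H2-K1 was above that of 24 h, but the sham level was too, so that the groups overlapped (log2 0.13 ± 0.17, adjusted p = 0.68 by limma). H2-T23 read 2702, 3083 and 2882 in sham and 4294, 3715 and 4202 in tMCAO, without overlap, and its log2 fold change of 0.49 ± 0.12 (adjusted p = 0.0079 by limma) missed the fold limit. Cd74 read 1105, 667 and 1425 against 996, 1355 and 684 (log2 -0.06 ± 0.33, adjusted p = 0.93 by limma). Of 5 choroid plexus markers 0 were higher and 3 lower in this comparison. Their sum was 15763 to 28947 in sham and 649 to 3112 in tMCAO, and its part in these values was not tested.

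The sham groups themselves differed between the time points, and this touched class I genes. In sham ipsilateral libraries 6 of the 35 genes were higher at 7 days than at 24 h and 0 lower: H2-K1, H2-D1, H2-Q4, H2-Q6, H2-Q7 and Tap1, all of class I. In that comparison 0.476% of all genes were called in either direction, 48 of them higher. H2-K1 rose from 7954, 8033 and 9244 at 24 h to 15684, 15707 and 18232 at 7 days (log2 0.98 ± 0.17, adjusted p = 0.010 by limma). H2-Q6 rose from 269, 227 and 267 to 808, 695 and 827 (log2 1.61 ± 0.28, adjusted p = 0.0087 by limma). Every 7 day value lay above every 24 h value in both genes. Leaving out single libraries left 1 to 5 of the 6 called, leaving H2-Q6 alone without 24 h library 1 and Tap1 alone without 24 h library 2.

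In sham contralateral libraries H2-K1 (log2 0.82 ± 0.17, adjusted p = 0.041 by limma) and Tap1 (0.65 ± 0.13, adjusted p = 0.030 by limma) were called higher at 7 days, where 0.332% of all genes were called. Without any single library other than number 1 of the 7 day group, 0 of the 35 were called in this comparison. The tMCAO contralateral hemisphere showed no such call between 24 h and 7 days: 0 of the 35 genes passed and 0% of all genes. At an unadjusted p under 0.05 stood 11 of the 35, beside 2637 of all 15982 genes, and of these 11 only H2-Q7 is of class I while 7 are of class II, each with a negative log2 fold change. There H2-K1 read 7875, 11329 and 8787 at 24 h and 10171, 12551 and 12285 at 7 days.

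At 7 days the class I sum of H2-K1, H2-D1 and B2m was lower in the contralateral hemisphere after tMCAO (42817 to 49686) than after sham (53046 to 70246), without overlap. No single gene of the family was called in that comparison, in which 0.0313% of all genes were called, and 14 of the 35 had an unadjusted p under 0.05, beside 1639 of all 15982 genes. The log2 fold change was negative in 31 of the 35 genes, with a median of -0.38 against 0.01 over all genes. H2-K1 had -0.41 ± 0.17 (adjusted p = 0.43 by limma) and Tap1 -0.51 ± 0.13 (adjusted p = 0.21 by limma). A contrast chosen after these values were seen took the change over time in tMCAO minus that in sham in the contralateral hemisphere. It called 0% of all genes higher and 0% lower, the family included. At 24 h tMCAO and sham contralateral libraries differed in 0 of the 35 genes and 0% of all genes. There 1 of the 35 had an unadjusted p under 0.05, beside 405 of all 15982 genes. The hemispheres of sham mice differed in 0 of the 35 at 24 h (0% of all genes) and 0 at 7 days (0%). The main fit did not pair same-numbered pools, although those of sham deviated together, and so could miss a difference between them. At an unadjusted p under 0.05 stood 0 of the 35 at either time, beside 367 of all 15982 genes at 24 h and 359 at 7 days.

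**Figure D2:**
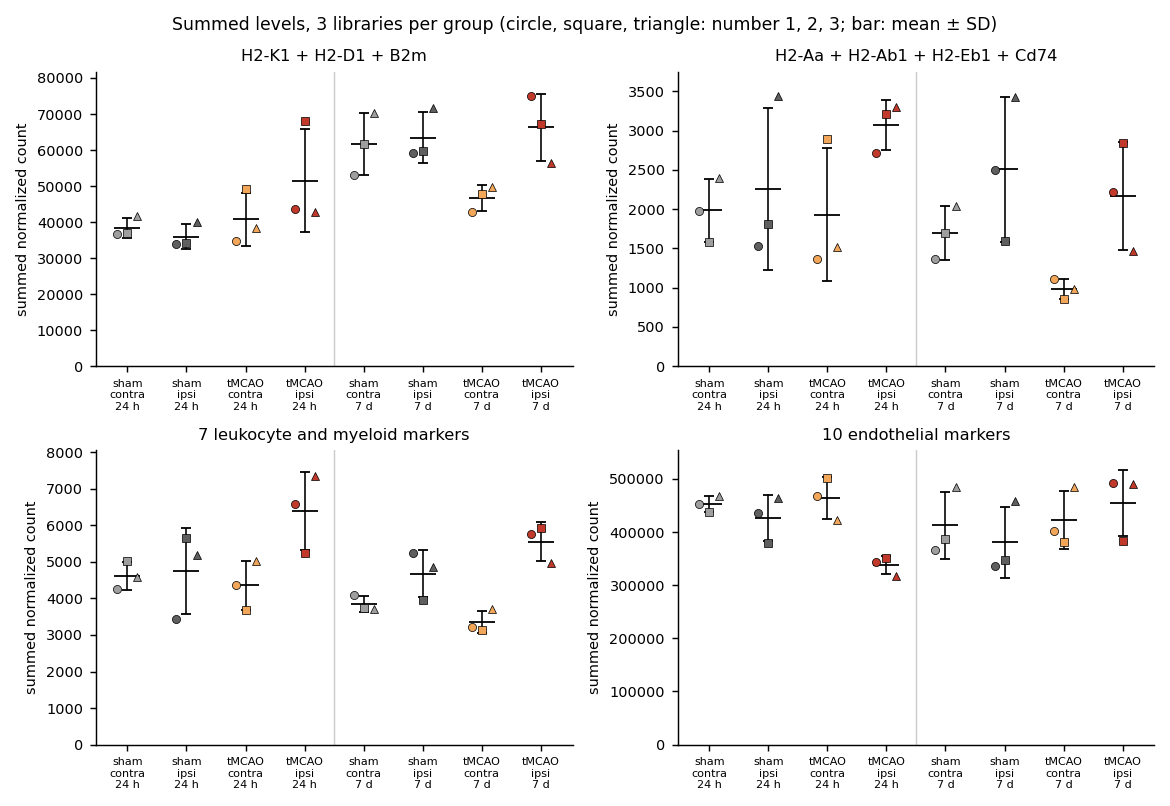
Summed normalized counts in each library, by group on the horizontal axis, for the class I chains H2-K1, H2-D1 and B2m, for the class II chains with Cd74, for 7 leukocyte and myeloid markers and for 10 endothelial markers; points are the 3 libraries and bars give mean and SD. The class I sum was 53046 to 71643 in both sham groups at 7 days and 42817 to 49686 in the tMCAO contralateral group, while the class II sum was lowest in the latter (852 to 1109).

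Set against the opposite hemisphere of tMCAO mice, the ipsilateral side gave 5 higher genes and 1 lower of 35 at 24 h, where 8.51% of all genes were higher and 5.14% lower. Ctss (log2 1.05 ± 0.16, adjusted p = 0.00015 by limma), Tap1 (0.64 ± 0.13, adjusted p = 0.0015 by limma), H2-Q7, H2-Q10 and H2-DMb1 were higher. H2-Q1 was lower, from 7, 5 and 7 to 4, 1 and 0 normalized counts, so few reads that the call was lost in 6 of 13 alternatives. Centring each library on its median gave 1097 genes higher and 1239 lower in place of 1360 and 821. The contralateral library 2 at 24 h was the highest of its group for Cd74 (1239 against 560 and 613), the 3 class II chains, H2-K1, H2-D1 and B2m, but not for Ctss, H2-T22 or H2-T23. Without it 12 genes were higher, Cd74, Ciita, H2-Aa, H2-Ab1 and H2-K1 among them, and without ipsilateral library 2 there were 3.

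At 7 days 11 of the 35 genes were higher ipsilaterally than contralaterally and 0 lower, against 3.03% of all genes higher and 9.98% lower. The median log2 fold change of the family was 0.64 against 0.03 over all genes, and 22 of the 35 (62.9%) did not overlap between the groups against 25.3% of all genes. Of class I, H2-K1, H2-Q7, H2-T23, Tap1 and Cd1d1 were called. Of class II, Ctss, Cd74, H2-Ab1 and H2-DMa were called, and so were both transactivators. This comparison and that with sham share the ipsilateral tMCAO libraries and differ only in the control.

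Cd74 and the 3 class II chains were followed against both controls, and whether the 2 comparisons differ for them was not tested. Cd74 read 431, 342 and 399 contralaterally and 996, 1355 and 684 ipsilaterally (log2 1.32 ± 0.33, adjusted p = 0.0072 by limma), and it was called in all 14 alternatives. H2-Ab1 read 187, 142 and 184 against 395, 463 and 255 (log2 1.08 ± 0.31, adjusted p = 0.021 by limma). H2-Aa read 273, 176 and 233 against 461, 614 and 288 (log2 0.95 ± 0.33, adjusted p = 0.059 by limma), and H2-Eb1 218, 192 and 167 against 360, 407 and 234. No ipsilateral value of the 4 genes fell among the contralateral ones, which were the lowest of all 8 groups by their mean. In sham ipsilateral libraries at the same time Cd74 read 667 to 1425, which encloses the tMCAO ipsilateral values. Ciita read 2, 7 and 3 contralaterally and 20, 32 and 10 ipsilaterally (log2 2.10 ± 0.52, adjusted p = 0.0071 by limma), while in sham ipsilateral libraries it read 14, 11 and 14.

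Nlrc5 read 177, 244 and 115 contralaterally and 288, 322 and 286 ipsilaterally (log2 0.80 ± 0.27, adjusted p = 0.048 by limma), a call lost in 7 of 14 alternatives. Tap1 read 773, 815 and 752 against 1292, 1118 and 1342 (log2 0.68 ± 0.13, adjusted p = 0.00085 by limma) and H2-T23 2224, 2773 and 3103 against 4294, 3715 and 4202 (log2 0.60 ± 0.12, adjusted p = 0.0013 by limma). Tap1 and Ctss (log2 1.64 ± 0.16, adjusted p = 1.5e-06 by limma) were called in all 14 alternatives, while the H2-T23 call was lost in 3 of 14. Leaving out ipsilateral library 1 left 5 of the 11 genes called, Cd1d1, Cd74, Ciita, Ctss and Tap1, and leaving out contralateral library 1 left 6. The 7 leukocyte and myeloid markers summed to 3133 to 3699 contralaterally and 4957 to 5937 ipsilaterally, the 6 perivascular macrophage markers to 2519 to 2817 and 1955 to 2484, and the 6 microglial markers to 1403 to 2001 and 2876 to 3076. Against the contralateral side, 4 of 7 leukocyte and myeloid markers, 2 of 5 B cell markers, 3 of 5 monocyte markers, 3 of the 4 T and NK cell markers tested and 2 of 6 dendritic cell markers were higher, with 1 of the latter lower. Contralateral library 1 stood apart in astrocyte markers (40053 against 13303 and 16068) and neuronal markers (11113 against 3490 and 4309). The part of these in the class II values was not tested.

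**Figure D3:**
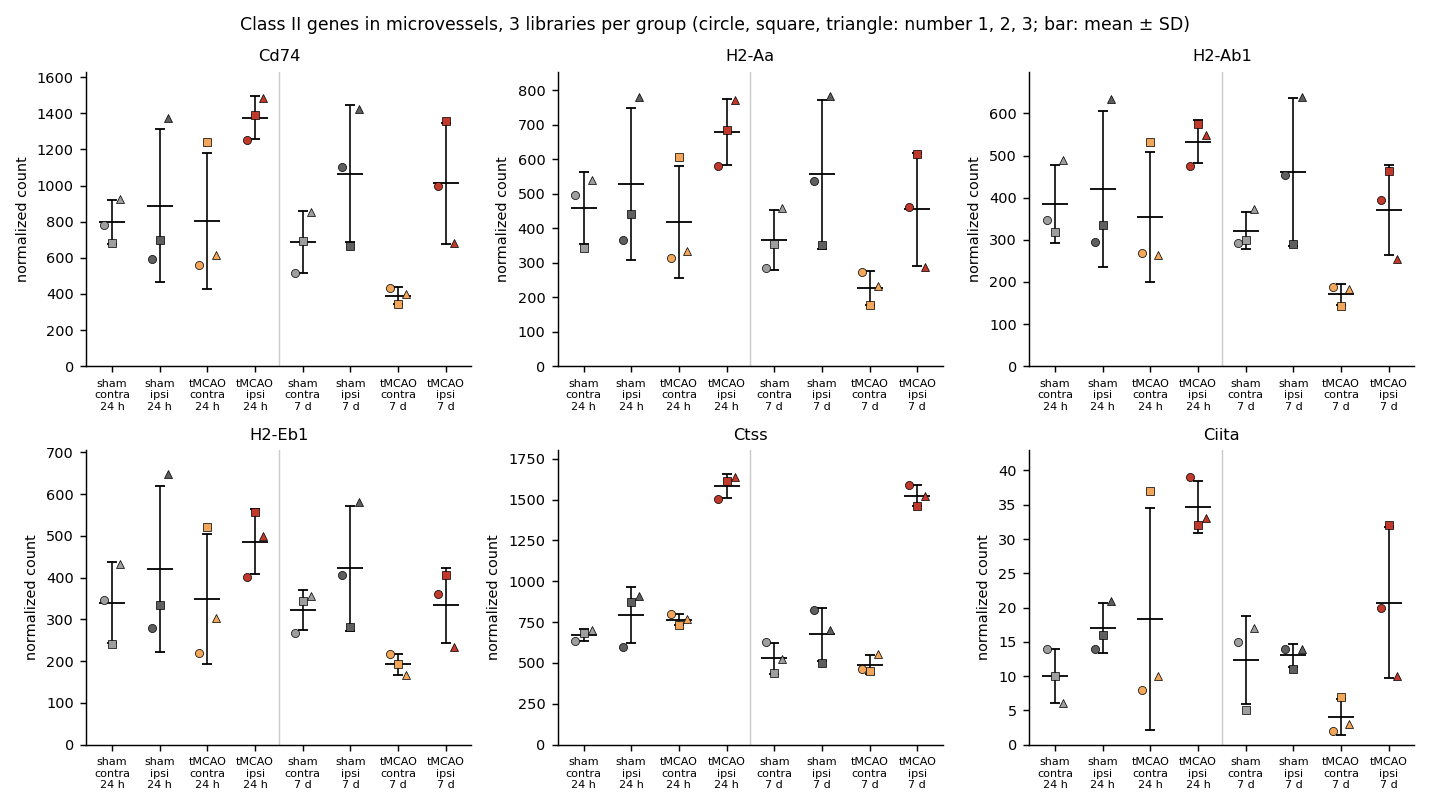
Normalized counts of 6 class II genes in each of the 24 libraries, by group on the horizontal axis (contra, contralateral; ipsi, ipsilateral; d, days), with the 3 libraries as points and mean and SD as bars. Cd74 and the 3 chains overlap between the ipsilateral groups of sham and tMCAO and are lowest in tMCAO contralateral at 7 days, while Ctss separates both tMCAO ipsilateral groups from all others.

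To use both controls at once, the difference between hemispheres in tMCAO was compared with that in sham, a contrast chosen after the values above were seen. At 24 h Ctss (log2 0.84 ± 0.23, adjusted p = 0.032 by limma) and Tap1 (0.72 ± 0.19, adjusted p = 0.023 by limma) were higher, 2 of 35, where 4.64% of all genes were higher and 1.25% lower. With each library centred on its median neither was called, and leaving out each library in turn gave 0 to 3 calls. Over 20 alternatives the call was lost in 9 for Ctss and in 7 for Tap1. Centring made 537 genes higher and 255 lower in place of 741 and 200. At 7 days Ctss (1.30 ± 0.23, adjusted p = 0.00074 by limma), H2-T23 (0.76 ± 0.17, adjusted p = 0.0060 by limma), Tap1 (0.65 ± 0.19, adjusted p = 0.029 by limma) and H2-T22 (0.63 ± 0.20, adjusted p = 0.048 by limma) were higher, 4 of 35, where 1.19% of all genes were higher and 8.65% lower. With the pool as a replicate block, the counts were 3 in place of 2 at 24 h and 6 in place of 4 at 7 days. H2-T22, like H2-T10 a ligand of some gamma delta T cells, read 792, 946 and 1275 contralaterally and 1592, 1311 and 1447 ipsilaterally after tMCAO. A low contralateral side after tMCAO also enlarges this contrast. At 7 days Tap1 had ipsilateral means of 1251 after tMCAO and 1138 after sham, and contralateral means of 780 and 1118. For H2-T22 the ipsilateral means were 1450 and 1104, and the contralateral means 1004 and 1170. Ctss and H2-T23 remained called at 7 days in all 20 alternatives, Tap1 in 12 and H2-T22 in 9. Cd74 had 0.73 ± 0.47 (adjusted p = 0.43 by limma) at 7 days and H2-K1 0.54 ± 0.25 (adjusted p = 0.21 by limma).

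**Figure D4:**
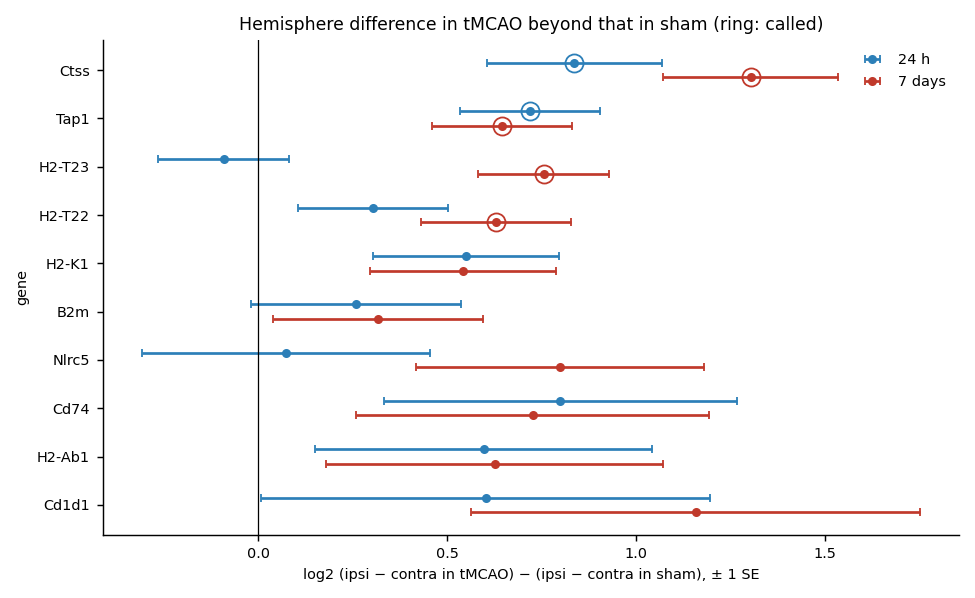
Difference between the hemispheres in tMCAO minus that in sham, on the log2 scale, for 10 genes at 24 h and at 7 days; points are fitted values, bars ± 1 SE, and rings mark called values. Ctss and Tap1 carry rings at both times, H2-T23 and H2-T22 at 7 days, and H2-T23 at 24 h lies near 0 (-0.09 ± 0.17).

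Between 24 h and 7 days 5 genes of the family became higher in the ipsilateral tMCAO hemisphere (H2-T23, Nlrc5, H2-T24, H2-Q7 and Tapbpl) and 2 became lower (Cd80 and H2-DMb1), against 3.72% of all genes higher and 8.44% lower. Centring each library on its median gave 939 genes higher and 1033 lower in place of 594 and 1349, and 11 higher and 1 lower in the family. H2-T23 rose from 1730, 2352 and 2017 to 4294, 3715 and 4202 (log2 1.01 ± 0.12, adjusted p = 2.5e-05 by limma). Nlrc5 rose from 81, 200 and 136 to 288, 322 and 286 (log2 1.19 ± 0.27, adjusted p = 0.0046 by limma). In sham ipsilateral libraries Nlrc5 read 133, 133 and 128 and then 227, 228 and 158, also without overlap but not called (log2 0.61 ± 0.27, adjusted p = 0.31 by limma), and the difference between tMCAO and sham in this change was not called (0.58 ± 0.38, adjusted p = 0.35 by limma). H2-Q7 was also called higher over this time in sham ipsilateral libraries, as given above. There H2-T24 went from 308, 262 and 257 to 322, 485 and 337, and H2-T23 from 2171, 2217 and 2381 to 2702, 3083 and 2882. Both changed without overlap, and Tapbpl went from 500, 493 and 448 to 661, 875 and 466, but none of these was called in sham. For H2-T24 and Tapbpl the difference between tMCAO and sham in this change was not called. Cd80, a ligand of CD28 and CTLA-4 that gives T cells the second signal, fell from 60, 52 and 57 to 14, 24 and 13 (log2 -1.72 ± 0.35, adjusted p = 0.0021 by limma). In sham ipsilateral libraries Cd80 read 26, 28 and 35 and then 25, 12 and 25. The difference between tMCAO and sham in this change was not called for Cd80 either. In tMCAO ipsilateral libraries H2-T23, Nlrc5 and Cd80 separated without overlap and were called in all 14 alternatives. Cd86, which binds the same receptors, read 104, 83 and 115 and then 69, 53 and 61 and was not called (adjusted p = 0.21 by limma). H2-K1 and H2-D1 were not called, but without the 24 h library 2 they were, with 9 genes higher.

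The direct test of whether the effect of tMCAO against sham differed between the time points called H2-T23 higher and Tap1 lower, 1 gene each, where 2.43% of all genes were higher and 5.68% lower, or 595 and 685 genes in place of 389 and 908 after centring. For H2-T23 the log2 effect went from -0.16 at 24 h to 0.49 at 7 days, a difference of 0.65 ± 0.17 (adjusted p = 0.021 by limma), and that call was lost in 3 of 20 alternatives. For Tap1 it went from 0.72 to 0.13, a difference of -0.59 ± 0.19 (adjusted p = 0.049 by limma), and that call was lost in 15 of 20 alternatives. No difference between the times was called for H2-K1 (-0.49 ± 0.25, adjusted p = 0.21 by limma), Cd74 (-0.79 ± 0.47, adjusted p = 0.30 by limma) or Ctss (0.18 ± 0.23, adjusted p = 0.67 by limma).

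**Figure D5:**
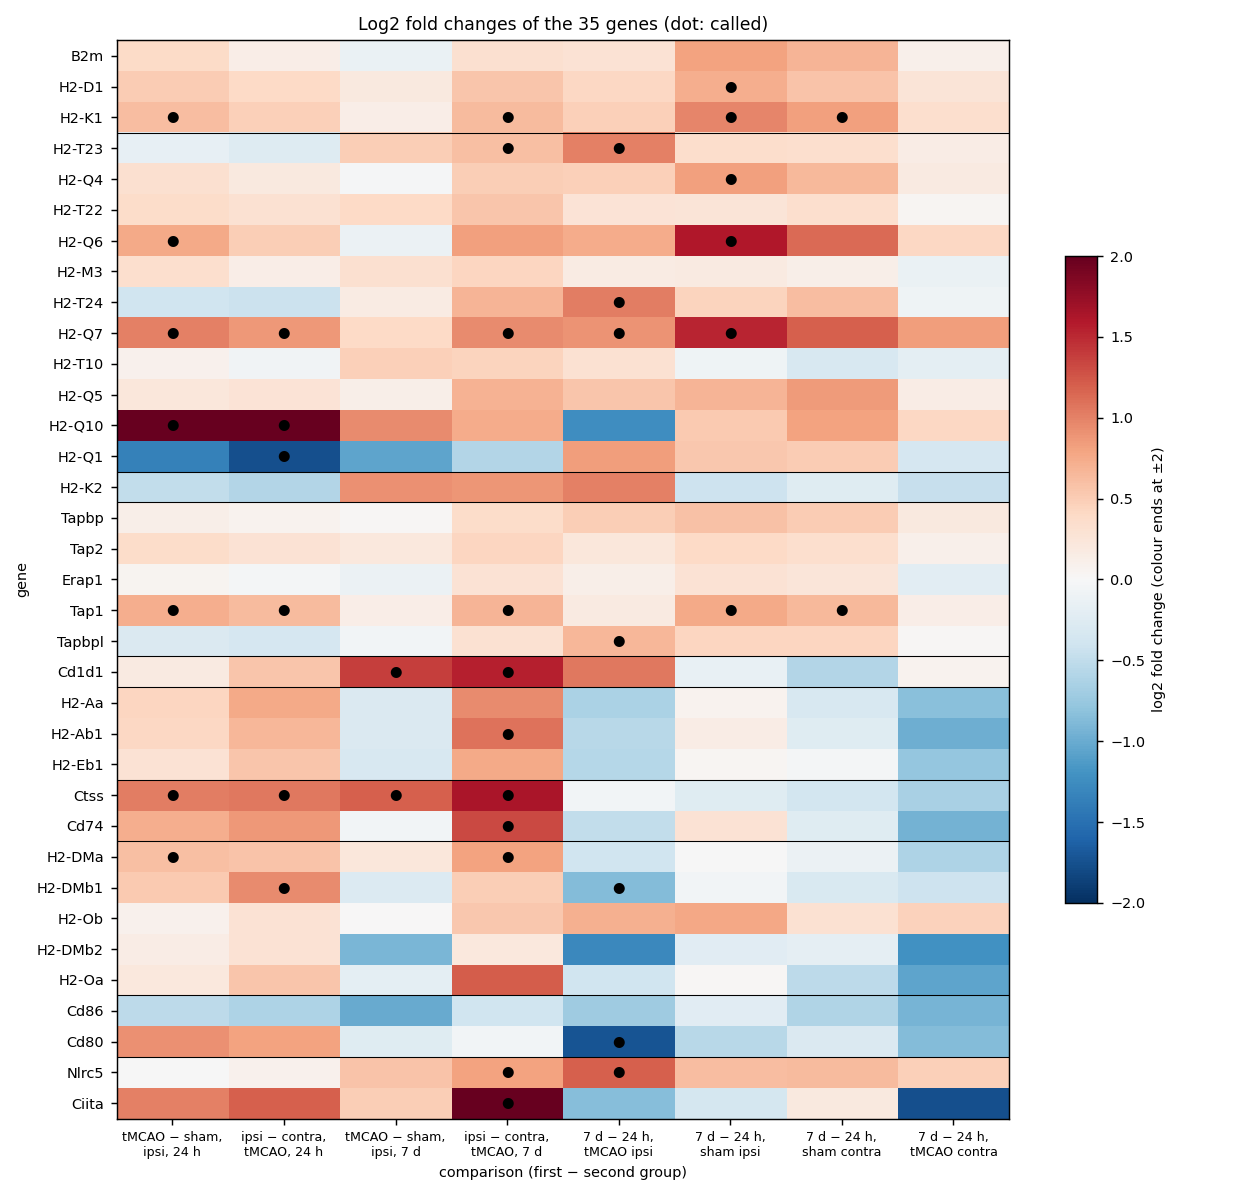
Log2 fold changes of the 35 genes (rows, grouped by role with lines between groups) in 8 comparisons (columns, first group minus second), from blue (lower) to red (higher), with the colour ending at 2 in either direction; dots mark called genes. Ctss carries a dot in the 4 columns that compare ipsilateral tMCAO with a control, and the class I dots of the sham columns lie at H2-K1, H2-D1, H2-Q4, H2-Q6, H2-Q7 and Tap1.

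Genes of the wider pathway, on lists set with the earlier results known, were read in the comparison of ipsilateral tMCAO with sham, where calls over all genes came to 10.0% upward and 8.23% downward at 24 h, then 3.27% upward and 9.95% downward at 7 days. Of 13 genes that supply class I peptides, 6 were higher at 24 h and 0 lower, with Thop1, a peptidase of the cytosol (log2 1.11 ± 0.17, adjusted p = 8.1e-05 by limma), and Psme2, a subunit of the proteasome activator PA28 (0.95 ± 0.12, adjusted p = 1.4e-05 by limma), the largest. At 7 days 0 of the 13 were called. Of 9 genes for endosomal processing, 2 were higher at 24 h, Lgmn, an asparagine endopeptidase (0.85 ± 0.19, adjusted p = 0.0030 by limma), and March1, which marks class II for turnover (0.83 ± 0.29, adjusted p = 0.038 by limma), and Cst3, an inhibitor of cathepsins, was lower (-0.61 ± 0.19, adjusted p = 0.021 by limma). At 7 days Lgmn (0.95 ± 0.19, adjusted p = 0.0017 by limma) and Ctsd, cathepsin D (0.90 ± 0.14, adjusted p = 0.00012 by limma), were higher.

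Genes that regulate MHC transcription were read the same way, beside the same shares of all genes. Of 14 interferon signalling genes 1 was called at 24 h, Socs1, a feedback inhibitor (log2 0.81 ± 0.26, adjusted p = 0.023 by limma), and 0 at 7 days. Irf1, a transcription factor induced by interferon, had 0.07 ± 0.10 at 24 h and 0.05 ± 0.10 at 7 days. Against the contralateral side 2 of the 14 were higher at 24 h, Socs1 and the receptor chain Ifngr2, where 8.51% of all genes were, and 1 at 7 days, where 3.03% were, Socs1 (1.09 ± 0.26, adjusted p = 0.0046 by limma), and Irf1 had 0.49 ± 0.10 (adjusted p = 0.0013 by limma), under the fold limit. Of 7 factors that bind the X and Y boxes 0 were called at either time, and Rfx5 had -0.18 ± 0.14 and -0.03 ± 0.14. Ifng was not analysed here. Of 5 class I-like receptors, Procr (1.67 ± 0.27, adjusted p = 0.00016 by limma) and Ulbp1, a ligand of NKG2D (1.24 ± 0.44, adjusted p = 0.038 by limma), were higher at 24 h and 0 were called at 7 days. Of 6 further costimulatory genes Cd40 was higher at 24 h (0.71 ± 0.22, adjusted p = 0.019 by limma), and 0 at 7 days.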

How the data were processed

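RNA of isolated brain microvessels was sequenced from stranded mRNA libraries. The deposited values are a score: counts per gene that the authors divided by DESeq2 size factors and rounded to whole numbers. The submitters' processing notes name STAR 2.5.2b, featureCounts 1.5.1, DESeq2 1.6.2 and the builds mm10 and GRCm38, while the paper's methods give other versions of STAR and DESeq2. The strand setting of the counting is not given in the sources used here, and the authors left out libraries they judged outliers.

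All 24 libraries of the 8 groups, assigned by their labels, entered 1 limma fit (limma 3.58.1, R 4.3.3) with a mean-variance trend on log2(value + 1), for 15982 genes with a mean above 5. Fold changes are on that scale, which understates those of low genes. P-values were adjusted (Benjamini-Hochberg) over these genes, and a call needed an adjusted p below 0.05 and a change beyond 1.5-fold. All 35 genes may be named; values of every library are given for the classical chains, Cd74, the transactivators and genes called between tMCAO and sham, and for further genes where a result turned on them. A value of the interferon list is not reported here. The fit was tested on simulated data. Members and lists were chosen with earlier results of these data known. Same-numbered hemisphere pools of sham mice deviated together (lowest correlation 0.145 at 24 h and 0.325 at 7 days) and count as paired by that check alone. Replicates correlated at 0.967 to 0.988. Alternatives were another pseudocount, no or a stricter filter, median centring, a replicate block, fewer groups, no trend, no fold limit and leaving out each library. Lengths and coordinates are from GENCODE vM21 on GRCm38, promoters from RefSeq.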

Additional observations from a re-analysis of the deposited data

Results flagged for a closer look

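Groups of 3 libraries were not checked for outlying values. The effect of tMCAO against sham differed between the time points by a test of the difference itself for H2-T23 (log2 0.65 at 7 days minus 24 h) and for Tap1 (-0.59). Of 20 alternatives, these calls were lost in 3 for H2-T23 and in 15 for Tap1. The difference between hemispheres was larger in tMCAO than in sham at 24 h for Ctss (log2 0.84) and Tap1 (0.72), and at 7 days for Ctss (1.30), H2-T23 (0.76), Tap1 (0.65) and H2-T22 (0.63). Of 20 alternatives, the 24 h calls were lost in 9 for Ctss and in 7 for Tap1. The 7 day calls were lost in 11 for H2-T22 and in 8 for Tap1, and in 0 for Ctss and for H2-T23. The contrasts between hemispheres were chosen after the values were seen. At 7 days the contralateral mean of Tap1 was 780 after tMCAO and 1118 after sham, and that of H2-T22 1004 and 1170. In tMCAO mice at 7 days the sum of 7 leukocyte and myeloid markers was 4957 to 5937 normalized counts ipsilaterally and 3133 to 3699 contralaterally, and its part in these results was not tested.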

How the results depend on the processing

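Counts of called genes of the family, of 35, depended on single libraries. Leaving out each library in turn gave 2 to 9 higher and 0 to 1 lower for ipsilateral tMCAO against sham at 24 h and 1 to 2 and 0 to 1 at 7 days. For ipsilateral against contralateral tMCAO it gave 3 to 12 higher and 0 to 1 lower at 24 h and 5 to 12 and 0 at 7 days. For tMCAO ipsilateral at 7 days against 24 h it gave 2 to 9 higher and 1 to 2 lower, for the interaction with time 0 to 2 and 0 to 1, for the hemisphere difference minus sham 0 to 3 higher at 24 h and 2 to 4 at 7 days, and for the control groups 3 to 8 calls in place of 8. Median centring of each library gave 4 higher in place of 7 against sham at 24 h, 3 in place of 5 between hemispheres at 24 h, 15 in place of 11 at 7 days, 11 higher and 1 lower in place of 5 and 2 over time, 0 lower in place of 1 for the interaction, 0 in place of 2 for the hemisphere difference at 24 h and 5 between control groups. Fitting only the compared groups gave 0 lower in place of 1 between hemispheres at 24 h, 7 in place of 11 at 7 days, 3 higher and 1 lower over time, 0 lower for the interaction and 4 between control groups. A minimum mean of 20 gave 1 in place of 2 against sham at 7 days and 0 lower in place of 1 between hemispheres at 24 h, both by testing fewer genes. With no filter the interaction had 0 lower, and with no trend 0 lower and 5 between control groups. Unless stated, the cause was not tested. Over 41 single gene calls, 475 of 616 alternative values kept direction and call, 141 lost the call and 0 reversed. Dropping the fold limit leaves the fit as it is and only loosens the call. That alternative could therefore lose no call, here or in the counts of alternatives above. With 3 pools a group, low genes such as H2-Q1, H2-Q10, Cd1d1 and Ciita rest on few reads.

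Whether same-numbered tMCAO pools come from the same mice is not stated in the sources used here. The correlation between their hemispheres was positive throughout, 0.0658 to 0.36 at 24 h and 0.0593 to 0.309 at 7 days. The main fit used no pairing. The replicate block took 2 forms. For comparisons of hemispheres it joined same-numbered pools of the same surgery and time. With it 8 genes in place of 5 were higher between hemispheres at 24 h and 16 in place of 11 at 7 days. For the hemisphere difference minus sham it gave 3 in place of 2 at 24 h and 6 in place of 4 at 7 days. For all other comparisons the block was the library number over all groups, which joins different mice and is no pairing. That form gave 5 in place of 7 against sham at 24 h. Between control groups, where both forms were used, there were 9 in place of 8.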
